A study of Mus musculus with 2 samples.

Results

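The 8 genes followed here encode the class II antigen presentation pathway: Cd74, H2-Aa, H2-Ab1, H2-Eb1, H2-DMa, H2-DMb1, Ciita and Ctss. They were picked by symbol as named members of that pathway, not by a measured value, and all 8 are among the 32285 genes of both count matrices. Their levels were read in 4 classes of cells (immune, epithelial, sebocyte, endothelial) from back skin and from the preputial gland (PG), a sebaceous organ that lies as a pair in the groin of the mouse. Both tissues came from the same kind of animal, male wild type C57BL/6 mice aged 52 weeks. Cells of 3 mice were pooled for each tissue, and 1 droplet-based 3′ library was made from each pool, so there was 1 back skin library and 1 PG library. With 1 library per tissue no comparison could be tested, and tissue and library cannot be told apart. Every interval given is a 95% interval for counting error alone.

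MHC class II molecules display peptides from endocytosed proteins to CD4 T cells. The α chain (H2-Aa) and the β chain (H2-Ab1) form the I-A molecule, and H2-Eb1 encodes the β chain of I-E, whose α chain is not made in mice of the C57BL/6 background. Cd74, the invariant chain, fills the peptide groove and guides the molecule to endosomes, where the protease cathepsin S (Ctss) trims it and H2-DM, made from H2-DMa and H2-DMb1, exchanges the last fragment for peptide. Ciita is the coactivator that switches the class II genes on. It is known to be constitutive in dendritic cells, macrophages and B cells and to be induced by interferon-γ in many other cells, keratinocytes and endothelial cells among them.

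In the GRCm38 build, 5 members lie in the same region of chromosome 17. These are H2-DMa (chr17:34119541-34139101, + strand), H2-DMb1 (chr17:34153072-34160230, +), H2-Ab1 (chr17:34257689-34269419, +), H2-Aa (chr17:34282744-34287823, −) and H2-Eb1 (chr17:34305867-34316674, +). Ciita lies at chr16:10480059-10528418 (+) and Ctss at chr3:95526786-95556403 (+). The upstream sequences of H2-Aa and H2-Eb1 are shown because class II promoters are known to share an X box and a Y box, which RFX and NF-Y bind and through which CIITA acts. The RefSeq promoter table for GRCm38.p6 matched 5 of the 8 members; H2-Ab1, Cd74 and Ciita had no entry. Each line below gives the 250 bases before the start site, 5′ to 3′ on the gene's own strand, with matches in capitals to the Y box letters CCAAT or its reverse complement ATTGG and to the X box-like letters CTNGNAACT. The window of H2-Aa is chr17:34287824-34288073 (− strand) and that of H2-Eb1 is chr17:34305617-34305866 (+ strand).
H2-Aa: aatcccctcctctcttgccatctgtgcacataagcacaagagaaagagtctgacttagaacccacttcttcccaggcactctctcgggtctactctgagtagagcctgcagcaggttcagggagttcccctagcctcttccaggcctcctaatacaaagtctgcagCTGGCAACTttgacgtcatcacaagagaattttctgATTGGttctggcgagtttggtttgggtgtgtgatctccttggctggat
H2-Eb1: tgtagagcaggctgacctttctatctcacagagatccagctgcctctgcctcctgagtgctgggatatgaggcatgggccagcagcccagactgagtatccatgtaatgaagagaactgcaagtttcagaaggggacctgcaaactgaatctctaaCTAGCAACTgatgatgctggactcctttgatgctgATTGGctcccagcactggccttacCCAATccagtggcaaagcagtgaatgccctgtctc
In H2-Aa the X box-like match CTGGCAACT began 84 bases before the start site and ATTGG 48 bases before it. In H2-Eb1 the match CTAGCAACT began 94 bases before the start site, with ATTGG 59 bases and CCAAT 35 bases before it. The promoter of H2-DMb1 also held both, CTAGTAACT at 97 bases and ATTGG at 61 bases. H2-DMa held ATTGG alone, 198 bases before the start site, and the Ctss window held neither. Of 32851 promoter windows of this length, 33.8% held the Y box letters, 3.47% the X box-like letters and 1.22% both, on either strand. The X box-like letters were settled on after these sequences had been read, so the matches describe the windows and nothing more.

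The back skin library gave 8899 cells with a median of 2386 unique molecular identifiers (UMIs) per cell, and the PG library gave 4699 cells with a median of 2729. Cells were gated by lineage markers, none of which is a class II gene. A gate needed at least 3 distinct markers, and a barcode that passed the lists of different lineages was set aside as mixed. The immune gate held 283 cells in skin and 204 in PG. The epithelial gate (keratinocyte list passed, sebocyte list not passed) held 6495 and 3122. The sebocyte gate held 134 and 435, and the endothelial gate 90 and 48. Epithelial cells could still hold sebocyte markers, and the median epithelial cell had 0 of them in skin and 1 in PG. Only 3 skin cells and 0 PG cells sat exactly at the limit of the immune gate, with 22 and 1 just below it. The skin sebocyte gate was the weakest, since 109 of its 134 cells had exactly 3 sebocyte markers beside a median of 9 keratinocyte markers. Fibroblasts, 960 in skin and 551 in PG, served as the class that should lack class II. Free RNA, taken from barcodes with 10 to 100 UMIs, held class II transcripts too. The sum of Cd74, H2-Aa, H2-Ab1 and H2-Eb1, called the class II core below, was 439 per 1000000 UMIs (CPM) in the free RNA of skin and 1031 CPM in that of PG. Cells that passed both an immune and an epithelial list were left out of the classes. There were 64 such cells in skin and 51 in PG, and they held 12.1% and 7.16% of the class II core UMIs of all cells.

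Class II levels were far higher in immune cells than in epithelial cells, sebocytes or endothelial cells in both tissues. The class II core was 20051 CPM (19685 to 20422) in the immune cells of skin against 31.5 CPM (29.1 to 34.0) in its epithelial cells, and 58620 CPM (57879 to 59368) against 72.7 CPM (67.5 to 78.1) in PG. The log2 ratio of epithelial to immune cells was therefore −9.32 (−9.43 to −9.20) in skin and −9.66 (−9.76 to −9.55) in PG. All 8 genes were at least 2-fold higher in immune than in epithelial cells of either tissue, where 18.5% of all genes tested in skin and 16.0% of those in PG were. In skin, the log2 ratio of immune over epithelial cells ran from 5.44 for H2-DMb1 to 11.4 for Ctss. In PG it ran from 7.0 for H2-DMb1 to 10.9 for H2-Eb1. The plot of levels by class shows each gene on the same scale.

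**Figure D1:**
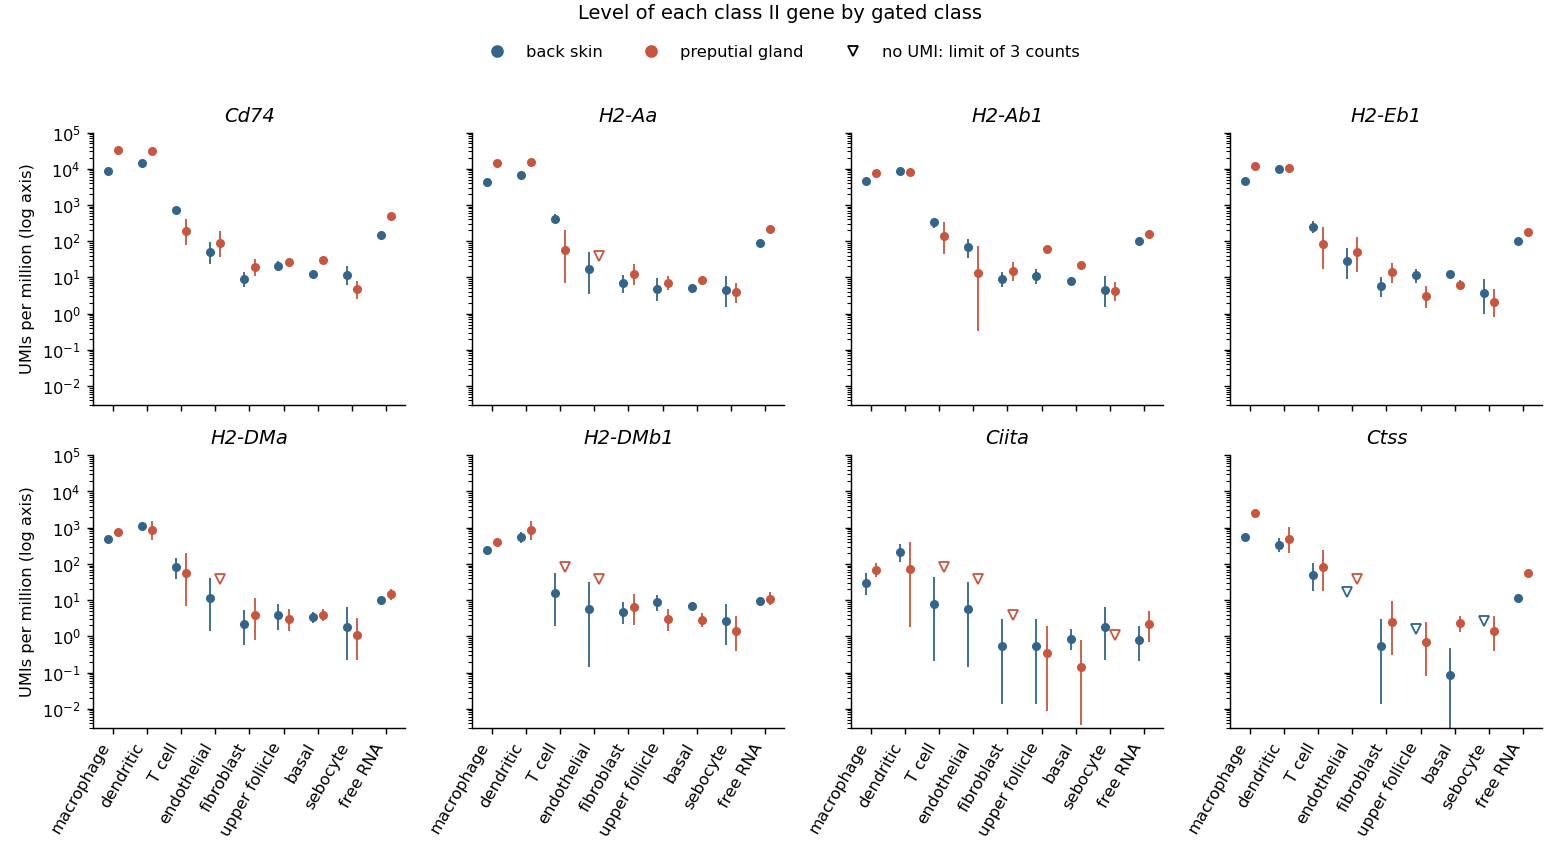
Level of each of the 8 genes in CPM (log axis) in 8 gated classes and in free RNA, for back skin (blue) and preputial gland (red). Bars are exact Poisson 95% intervals, and open triangles mark classes without a UMI, drawn at the limit that 3 counts give. Among classes with a UMI, the macrophage and dendritic gates stand above every other class for all 8 genes, and in PG H2-Ab1 is higher in the upper follicle gate, at 59.4 CPM, than in the basal gate, at 21.5 CPM. The dendritic gate of PG holds only 7 cells.

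PG immune cells carried more class II message than skin immune cells. Cd74 stood at 7779 CPM (7552 to 8012) in skin and at 29310 CPM (28787 to 29840) in PG, a log2 ratio of 1.91 (1.86 to 1.96). The I-A α chain gene H2-Aa rose from 3733 CPM in skin to 12598 CPM in PG, by 1.75 on the log2 scale (1.68 to 1.83). Its partner H2-Ab1 differed less, with 4195 CPM in skin and 6594 CPM in PG and a log2 ratio of 0.65 (0.57 to 0.73). H2-Eb1 was at 4343 CPM in skin and 10117 CPM in PG, a log2 ratio of 1.22 (1.15 to 1.29). The widest gap was that of Ctss, from 395 CPM (345 to 451) in skin to 2040 CPM (1903 to 2183) in PG, with a log2 ratio of 2.37 (2.15 to 2.59). The peptide exchange genes were closer together. H2-DMa was at 503 CPM in skin and 667 CPM in PG, and H2-DMb1 at 246 and 375 CPM, for log2 ratios of 0.41 (0.16 to 0.65) and 0.61 (0.27 to 0.95). H2-DMb1 has a near-identical neighbour, H2-DMb2, and how reads were shared between them is uncertain. Ciita rested on few molecules, 35 UMIs in skin against 29 from PG, and its log2 ratio of 0.21 had an interval from −0.55 to 0.96. In sum, 4 of the 8 genes were at least 2-fold higher in PG immune cells and 0 were as far lower, where 10.2% of all genes were that far higher and 23.6% that far lower.

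The difference was seen within macrophage-gated cells too. These cells, gated on complement C1q genes, Csf1r, Lyz2 and like markers, numbered 143 of 283 immune cells in skin and 154 of 204 in PG. The genes that stood out most in the skin gate included the macrophage markers Ms4a7 and Pf4. Those of the PG gate were Il10, Ifnb1, Clec4a1, Ms4a4a, Dcstamp, Il1a, H2-M2, Mmp12, Ccl9 and Fcna, none of them a listed marker. The dendritic marker list summed to 748 CPM in the macrophage gate of skin and 886 CPM in that of PG. The part of the gate's make-up in the difference was not tested. The median cell had 10 immune markers in skin and 11 in PG, and its depth was 1843 UMIs in skin and 1842 in PG. In them the class II core was 22168 CPM (21637 to 22709) in skin and 67334 CPM (66436 to 68242) in PG, a log2 ratio of 1.60 (1.56 to 1.64). Cd74 was at 8802 CPM in skin and 33766 CPM in PG, and Ctss at 547 and 2505 CPM, for log2 ratios of 1.94 (1.88 to 2.0) and 2.20 (1.95 to 2.45). Ciita gave 9 UMIs in skin against 22 in PG, a log2 ratio of 1.2 (0.02 to 2.50). Of the 8 genes, 5 were at least 2-fold higher in PG macrophages, where the background was 13.0%. Among the 4 core genes H2-Ab1 had the smallest ratio, with 4490 CPM in skin, 7443 CPM in PG and a log2 ratio of 0.73 (0.63 to 0.83). The H2-DM chains were under 2-fold too, with H2-DMa at 496 and 745 CPM, a log2 ratio of 0.59 (0.28 to 0.89), and H2-DMb1 at 245 and 409 CPM, a log2 ratio of 0.74 (0.32 to 1.17). The number of H2-Ab1 UMIs per H2-Aa UMI in macrophages was 1.06 (0.98 to 1.14) in skin and 0.52 (0.49 to 0.54) in PG. The interval of the skin ratio and that of the PG ratio do not overlap.

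**Figure D2:**
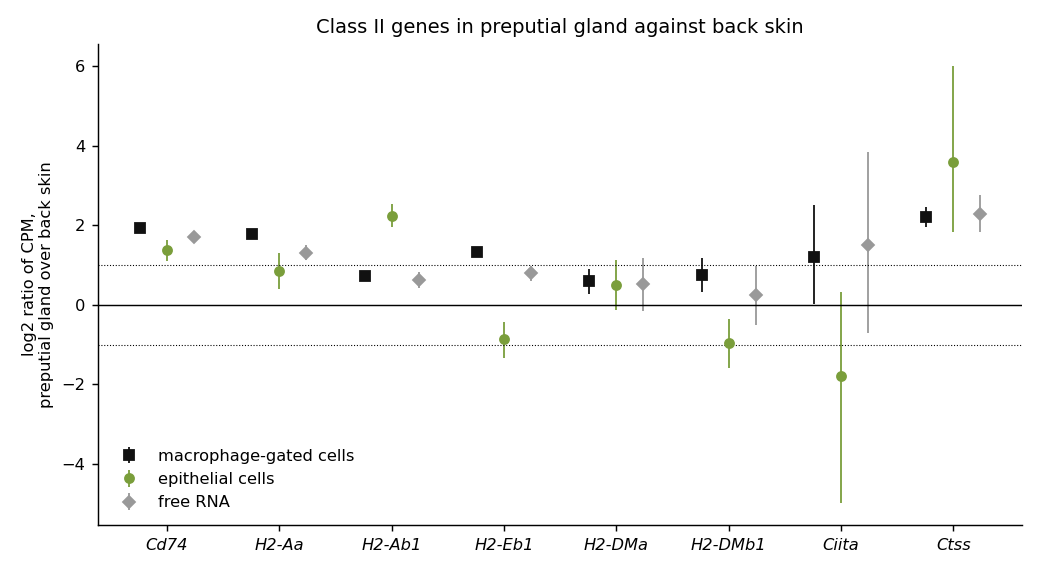
The log2 ratio of CPM in PG over back skin for each of the 8 genes, in macrophage-gated cells (squares), epithelial cells (circles) and free RNA (diamonds). Bars are exact 95% intervals for counting error, and dotted lines mark 2-fold. Cd74 and Ctss are above 2-fold in all 3, while H2-Eb1 is at 1.34 in macrophages and at −0.86 in epithelial cells.

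Free RNA differed between the libraries in the same sense. Cd74 was at 149 CPM in the free RNA of skin and 485 CPM in that of PG, and Ctss at 11.8 and 57.8 CPM. These levels were far below those in macrophages of either tissue. Subtracting 5% of the UMIs at the free RNA make-up left the log2 ratio of the class II core in immune cells at 1.55. So small a share could hardly move it. The core was 439 and 1031 CPM in free RNA, against 20051 and 58620 CPM in the immune cells of skin and PG. The part of free RNA in the difference was not tested.

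Single cells showed the shift across the macrophage gate. The share of a cell's UMIs taken by the class II core ran from 0% through a median of 1.67% to 9.46% over the 143 skin macrophages. Over the 154 PG macrophages it ran from 0.18% through a median of 6.41% to 15.7%. The interquartile ranges, 0.52% to 2.95% in skin and 4.65% to 7.86% in PG, did not overlap, although the full ranges did. Every PG macrophage kept a class II core UMI after thinning to 1000 UMIs per cell, against 95.8% of the skin macrophages. Most marker-defined subsets gave the same order, by unlike margins. The class II core was 18342 CPM in skin immune cells with a C1qa UMI and 67381 CPM in such PG cells, and 18520 and 48424 CPM in cells with Mrc1, the mannose receptor of tissue-resident macrophages. The gap was narrower in cells with the macrophage marker Cd163, at 19830 CPM in skin and 30191 CPM in PG. Cells with the T cell marker Cd3e went the other way, at 1978 CPM in skin and 1058 CPM in PG.

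**Figure D3:**
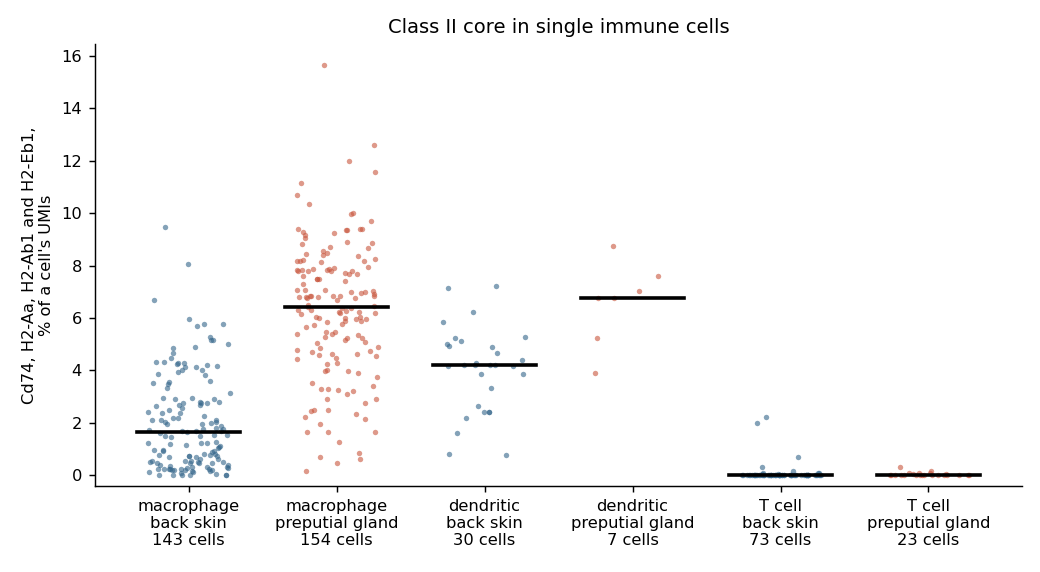
Share of each immune cell's UMIs taken by Cd74, H2-Aa, H2-Ab1 and H2-Eb1, in percent, by gate and tissue. Each point is 1 cell and the black line is the median. The median of PG macrophages (6.41%) lies above that of skin macrophages (1.67%) and of skin dendritic cells (4.21%), and 63 of 73 T cells of skin and 16 of 23 of PG are at 0%.

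In skin the dendritic gate was the richest class. Its 30 cells held 39241 CPM (37745 to 40782) of the class II core, a log2 ratio of 0.82 (0.76 to 0.89) over skin macrophages. The skin dendritic level of H2-Eb1 was 9856 CPM against 4631 CPM in macrophages, and that of H2-DMa was 1135 against 496 CPM. Ciita was at 212 CPM (116 to 356) in dendritic cells and 30.2 CPM (13.8 to 57.3) in macrophages, for a log2 ratio of 2.81 (1.5 to 4.2). Ctss went the other way, with 333 CPM in dendritic cells and 547 CPM in macrophages. At least 2-fold higher in skin dendritic cells were 4 of the 8 genes, H2-Eb1, H2-DMa, H2-DMb1 and Ciita, against a background of 14.4%. The 7 PG dendritic cells were too few to compare; their class II core was 65609 CPM, beside 67334 CPM in PG macrophages. Cells with a UMI of Cd207, the langerin gene of Langerhans cells, held 43598 CPM in skin (47 cells) and 81797 CPM in PG (16 cells). Cells with Itgax, which encodes CD11c, numbered 14 of 283 immune cells in skin and 59 of 204 in PG, and held 37555 and 75954 CPM. Both markers were counted over all immune cells, whatever their gate. Most of the 59 cells lay outside the dendritic gate of PG, which held 7 cells.

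T cells were poor in class II, as mouse T cells are known to be. The class II core was 1714 CPM in the 73 T cells of skin and 478 CPM in the 23 of PG. Macrophages exceeded T cells at least 2-fold for all 8 genes in skin, where the background was 17.5%, and for 7 of 8 in PG, where it was 12.2%. In skin, 3 of the 73 cells held 94.9% of these UMIs, and the remaining 70 had 96.9 CPM, below the free RNA level of 439 CPM. These 3 cells had a mean of 15.3 immune markers, where the median T cell had 9. Trdc, a γδ T cell receptor gene, was found in 46 skin immune cells and 1 PG immune cell, counted over all immune cells. That PG cell was in the macrophage gate, not in the T cell gate. The class II core took 1.27% of its UMIs, where the highest share of a PG T cell was 0.33%. The T cell gate held 73 of 283 immune cells in skin and 23 of 204 in PG. B cells, which make class II constitutively, were represented by 1 cell in skin and 3 in PG and are not described further.

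Epithelial cells as a whole were close to the fibroblast background. In skin the class II core was 31.5 CPM in epithelial cells and 30.8 CPM (23.4 to 39.9) in fibroblasts, a log2 ratio of 0.03 (−0.36 to 0.44). In PG it was 72.7 and 61.1 CPM (45.1 to 81.1), a log2 ratio of 0.25 (−0.17 to 0.70). Of the 7 members with at least 10 UMIs, 0 passed 2-fold over fibroblasts in skin, where 18.4% of all genes were higher and 21.8% lower. In PG 1 of 7, H2-Ab1, was higher and 2, H2-Eb1 and H2-DMb1, were lower, where the background was 19.7% and 22.9%. After thinning to 1000 UMIs, 2.71% (2.33 to 3.13) of skin epithelial cells and 5.67% (4.88 to 6.54) of PG epithelial cells had a class II core UMI, against 2.08% (1.28 to 3.20) and 4.72% (3.11 to 6.84) of fibroblasts. Without thinning the shares were 5.99% and 14.0% in epithelial cells and 4.06% and 5.99% in fibroblasts, whose median depths of 1791 and 1322 UMIs were below the epithelial ones of 2567 and 2939. A few cells carried much of it. In skin, 24 of 6495 epithelial cells had 5 or more class II core UMIs and held 29.9% of the class's total, and in PG 17 of 3122 cells held 27.6%. Between the tissues, the class II core in epithelial cells had a log2 ratio of 1.21 (1.05 to 1.36) for PG over skin, beside 0.99 (0.40 to 1.56) in fibroblasts and 1.23 (1.15 to 1.32) in free RNA. The epithelial cells of skin included 1273 in the suprabasal gate and 541 in the hair matrix gate, and those of PG 3 and 0. Within the basal gate the log2 ratio was 0.79 (0.59 to 0.98), and within the upper follicle gate 0.98 (0.63 to 1.34). The basal gates were not alike in make-up. The basal markers summed to 20240 CPM in that of skin and 4944 CPM in that of PG, and the sebocyte markers to 83.4 and 497 CPM. The part of this make-up in the ratios was not tested.

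Gene by gene, epithelial cells of the tissues parted. Cd74 was at 10.8 CPM in skin and 27.8 CPM in PG epithelium, a log2 ratio of 1.37 (1.11 to 1.63). It came to 0.10 once 5% of the UMIs had been subtracted at the free RNA make-up. That share was a setting, not a measured value. In PG epithelium H2-Eb1, Ctss and H2-Aa stood at 2.97%, 3.05% and 3.67% of their free RNA levels, and the other members above 5%. The subtraction thus took off more than those lower genes held. The part of free RNA in the Cd74 ratio was not tested. H2-Ab1 was at 6.70 CPM (5.63 to 7.92) in skin and 31.7 CPM (28.3 to 35.3) in PG, a log2 ratio of 2.24 (1.95 to 2.54), or 3.81 with the same subtraction. Ctss had 3 UMIs in skin and 18 in PG. Cd74, H2-Ab1 and Ctss were the 3 of 8 genes at least 2-fold higher in PG epithelium, where 16.8% of all genes were. H2-Eb1 was instead lower, with 9.61 CPM in skin, 5.28 CPM in PG and a log2 ratio of −0.86 (−1.33 to −0.42), and so was H2-DMb1, with 5.68 and 2.93 CPM and a log2 ratio of −0.95 (−1.58 to −0.36). Ciita had 14 UMIs in skin and 2 in PG, and was the 1 gene past 2-fold lower, a side that held 22.4% of all genes, with an interval from −4.98 to 0.33. H2-Aa, at 4.37 and 7.92 CPM, and H2-DMa, at 2.62 and 3.72 CPM, did not pass 2-fold in either direction. Within the basal gates, unlike in make-up as given above, the log2 ratio of H2-Ab1 was 1.43 (1.04 to 1.82). Within the upper follicle gates it was 2.44. That of Cd74 was 1.23 (0.92 to 1.55) in basal and 0.29 (−0.28 to 0.89) in upper follicle cells. H2-Eb1 had −1.0 (−1.53 to −0.50) in basal and −1.89 (−3.20 to −0.70) in upper follicle cells, and H2-DMb1 had −1.29 (−2.08 to −0.58) and −1.5 (−2.86 to −0.23).

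H2-Ab1 in PG epithelium stood apart from its partner chain. The number of H2-Ab1 UMIs per H2-Aa UMI was 0.52 (0.50 to 0.55) in PG immune cells and 0.71 (0.62 to 0.82) in PG free RNA, but 4.0 (3.13 to 5.17) in PG epithelial cells. Its interval in PG epithelium thus lay wholly above those of the immune cells and the free RNA of the same library. In skin the ratio was 1.12 (1.06 to 1.19) in immune cells, 1.14 (1.0 to 1.30) in free RNA and 1.53 (1.17 to 2.02) in epithelial cells. Smaller skin classes varied on few UMIs. H2-Ab1 and H2-Aa had 20 and 9 UMIs in the upper follicle gate of skin and 12 and 3 in its endothelial cells. They had 17 and 18 in its suprabasal gate and 5 and 5 in its sebocytes. The excess was strongest in the 753 PG cells of the upper follicle gate (Krt79, Krt17, Cst6, Defb6 and Krt6a). In this PG gate the ratio was 8.24 (5.22 to 13.6), from 173 H2-Ab1 and 21 H2-Aa UMIs. Its leading genes included 2 of its own list, Cst6 and Defb6, and 1 of the suprabasal list, Krtdap. Those of the skin gate included all 5 of the list. The list summed to 58007 CPM in the PG gate and 52577 CPM in the skin gate. The gate's name stands for that list, and which gland cells it held in PG was not tested. In the basal gate of PG it was 2.55 (1.87 to 3.52), and in PG fibroblasts and sebocytes it was 1.2 (0.48 to 3.10) and 1.09 (0.44 to 2.73).

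**Figure D4:**
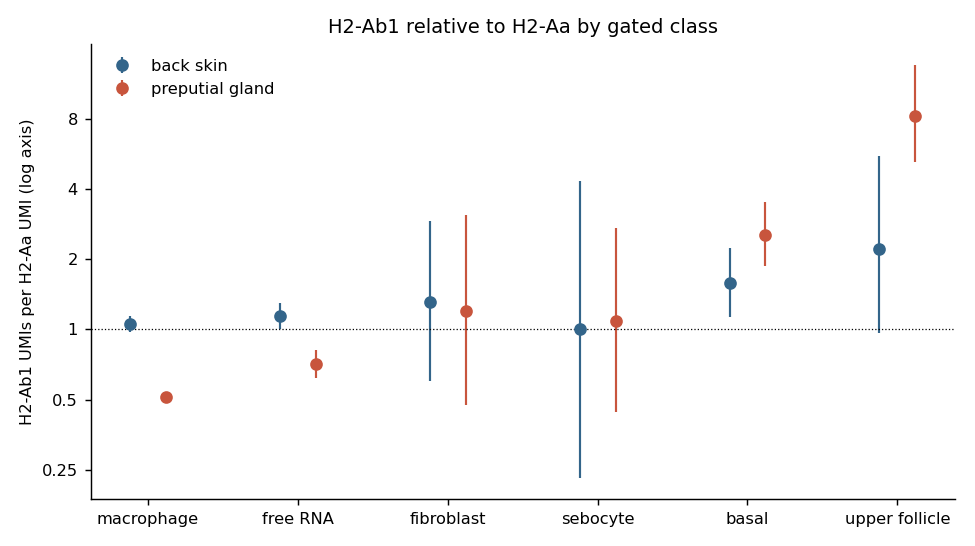
H2-Ab1 UMIs per H2-Aa UMI (log axis) by class in back skin (blue) and PG (red), with exact 95% intervals for counting error; the dotted line marks equal numbers. In PG the ratio is 0.52 in macrophages, 0.71 in free RNA, 2.55 in the basal gate and 8.24 in the upper follicle gate.

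The H2-Ab1 message was spread over many cells of the upper follicle gate of PG. It was found in 131 of 753 cells (17.4%), with at most 4 UMIs in any cell. Of the 131 cells, 123 had no UMI of the other class II core genes. Those genes were rare in the whole gate, with Cd74 in 50, H2-Aa in 16 and H2-Eb1 in 9 of the 753 cells. The count of 123 therefore does not show that H2-Ab1 was made alone. After thinning, the share of cells with H2-Ab1 was 6.24% (4.62 to 8.21) in this gate. It was 1.95% (1.42 to 2.62) in the PG basal gate, 1.27% (0.51 to 2.60) in PG fibroblasts and 0.48% (0.10 to 1.41) in the upper follicle gate of skin. The level of H2-Ab1 was 59.4 CPM (50.8 to 68.9) in the PG upper follicle gate, 21.5 CPM (18.1 to 25.2) in the PG basal gate, 15.3 CPM (7.90 to 26.7) in PG fibroblasts and 10.9 CPM (6.66 to 16.8) in the skin upper follicle gate. The log2 ratio of upper follicle over basal cells in PG was 1.47 (1.14 to 1.79) for H2-Ab1, the 1 of 7 members tested that was past 2-fold higher, where 8.40% of all genes were, while 2, H2-Eb1 and Ctss, were past 2-fold lower, where 18.4% were. Over fibroblasts its log2 ratio was 1.96 (1.12 to 2.94), and it was again the 1 of 6 members tested that was higher, against a background of 18.5%, with 2 lower, against 27.2%. Over the upper follicle gate of skin it was 2.44 (1.77 to 3.19), with 1 of 6 members higher, against 14.1%, and 2, H2-Eb1 and H2-DMb1, lower, against 19.7%. The other core genes were not higher in the upper follicle gate. H2-Aa was at 7.21 CPM in the upper follicle gate and 8.41 CPM in the basal gate of PG, Cd74 at 26.1 and 29.7 CPM, and H2-Eb1 at 3.09 and 6.23 CPM. Of the marker lists of other cells, the 31 immune markers summed to 51.1 CPM in the upper follicle gate and 54.4 CPM in the basal gate. The macrophage markers among them summed to 27.8 and 25.9 CPM, the dendritic ones to 5.49 and 3.91 CPM, and the 16 endothelial markers to 91.3 and 20.9 CPM. The part of such cells in the H2-Ab1 level was not tested. The median cell with H2-Ab1 in this gate had 0 immune markers, as had the median cell of the whole gate. Cells that passed the immune list had been left out of it, which kept these medians low by design.

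Within PG epithelium, the share of cells with H2-Ab1 differed with the keratinocyte marker a cell held. After thinning H2-Ab1, 7.52% (5.76 to 9.62) of the cells with a Krt6a UMI had it, against 1.49% (1.04 to 2.06) of the cells without. The shares were 5.39% and 0.69% for Krt17, 7.26% and 1.67% for Krtdap, which is in the suprabasal list, and 6.37% and 1.81% for Defb6. For Krt15, a marker of basal and bulge keratinocytes, the order was turned, with 2.02% (1.44 to 2.75) of the cells that had it and 4.54% (3.43 to 5.88) of those that had not. Markers of 1 list did not go together. The upper follicle marker Krt79 gave 2.61% (1.72 to 3.77) and 3.16% (2.46 to 4.01), and the basal markers Col17a1 and Trp63 gave 2.99% and 2.98%, and 3.19% and 2.74%. The intervals of these 3 markers, and those of Krt5 and Krt10, overlapped. In skin the same split gave 0.71% and 0.76% for Krt6a, 0.78% and 0.73% for Krt17, and 0.74% and 0.76% for Krtdap. The markers themselves were read without thinning, so deeper cells were more likely to be counted as having one.

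**Figure D5:**
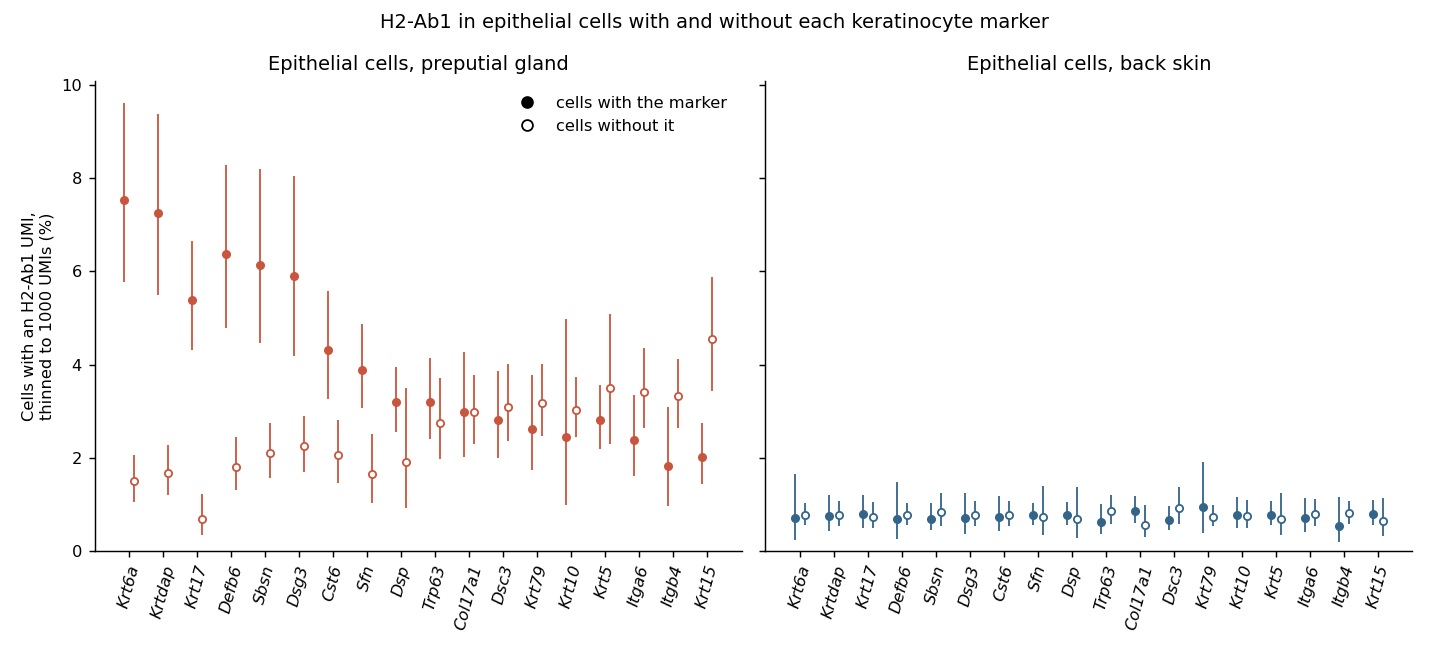
Share of epithelial cells with an H2-Ab1 UMI after thinning to 1000 UMIs, in percent, for cells with (filled) and without (open) each keratinocyte marker, in PG (left) and back skin (right), with exact Clopper-Pearson 95% intervals. Markers are ordered by the difference in PG and shown where both sets hold at least 100 cells in PG. In PG cells with Krt6a the share is 7.52% against 1.49% without it, and in skin 0.71% against 0.76%.

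Skin epithelium had uneven ratios to H2-Aa too. H2-DMb1 does not pair with H2-Aa but gave 1.30 UMIs per H2-Aa UMI (0.98 to 1.73) in skin epithelial cells. The ratio was 0.066 in skin immune cells and 0.107 in free RNA, while skin fibroblasts had 9 H2-DMb1 and 13 H2-Aa UMIs. H2-DMb1 and its partner H2-DMa had 117 and 54 UMIs in skin epithelium, and 140 and 286 in skin immune cells. Its 117 UMIs lay in 115 cells, 100 of them without a class II core UMI. Of all 6495 skin epithelial cells, 6106 had no class II core UMI, so its absence did not mark these cells out. The share of cells with H2-DMb1 after thinning was 0.69% (0.51 to 0.93), beside 0.52% (0.17 to 1.21) of skin fibroblasts. It thus did not exceed the fibroblast share beyond counting error. H2-Eb1 gave 2.20 UMIs per H2-Aa UMI (1.71 to 2.85) in skin epithelium, 2.48 (1.82 to 3.43) in its basal gate and 1.16 (1.10 to 1.23) in skin immune cells. Its level in the skin basal gate was 12.5 CPM (10.5 to 14.7), against 5.85 CPM (2.92 to 10.5) in skin fibroblasts. The hair matrix gate of skin was the poorest epithelial gate, with a class II core of 10.2 CPM (6.45 to 15.3). The basal gate held 38.1 CPM (34.7 to 41.9), and the log2 ratio of hair matrix over basal cells was −1.91 (−2.58 to −1.30). The leading genes of the hair matrix gate included Krt71, Krt25, Krt27 and Krt28 of its own list, beside Krt73 and Tchh. Its name stands for that list, and the place of these cells in the follicle was not tested. H2-DMb1 was not detected in the 541 cells of the hair matrix gate, which allows up to 1.33 CPM, beside 7.11 CPM in the basal gate. The suprabasal gate of skin held 19.4 CPM (15.6 to 23.9), and 5 of 7 members tested were at least 2-fold lower in it than in the basal gate, where the background was 21.8%.

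Sebocyte-gated cells held little class II message in either tissue. The cells so gated differed between the tissues: the 11 sebocyte markers summed to 2038 CPM in skin and 7246 CPM in PG, while the suprabasal list summed to 57697 CPM in the skin gate, beside 49520 CPM in the suprabasal gate of skin, and to 124 CPM in PG. The part of this make-up in the ratios between the tissues was not tested. In these cells the class II core rested on 27 UMIs in skin, or 24.5 CPM (16.2 to 35.7), and on 42 UMIs in PG, or 15.1 CPM (10.9 to 20.4), for a log2 ratio of −0.70 (−1.43 to 0.06). That ratio moved to −1.86 with a stricter gate, which left 121 and 253 cells. In PG this was below the fibroblast level by 2.02 on the log2 scale, with an interval from −2.65 to −1.39, and 4 of the 4 members with enough UMIs were at least 2-fold lower than in fibroblasts, where the background was 29.7%. After thinning, 1.38% (0.51 to 2.98) of PG sebocytes and 2.24% (0.46 to 6.40) of the sebocyte-gated cells of skin had a class II core UMI. Ciita was not detected in 435 PG sebocytes, which allows a level of up to 1.08 CPM. The median depth was 6377 UMIs in PG sebocytes and 1322 in PG fibroblasts. Between the tissues, 1 of the 4 members with enough UMIs, Cd74, was past 2-fold lower in PG sebocytes (13 UMIs in each tissue), where 22.5% of all genes were. Gating on 2 distinct markers gave Cd74 a log2 ratio of −0.50 (−1.59 to 0.57), which is under 2-fold with an interval that includes 0.

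Endothelial cells were few but lay above the fibroblasts in skin. The class II core was 164 CPM (110 to 235) in the 90 endothelial cells of skin, from 29 UMIs, and 154 CPM (79.7 to 270) in the 48 of PG, from 12 UMIs. Its log2 ratio for PG over skin was −0.09, with a counting interval (−1.19 to 0.93) that includes 0. A difference between the tissues could not be tested with 1 library of each. Among the 29 and 10 cells with 1000 genes and 2000 UMIs or more the log2 ratio was −2.74. Against fibroblasts the log2 ratio was 2.41 (1.71 to 3.08) in skin and 1.34 (0.29 to 2.27) in PG, and 4 of 5 members tested in skin and 2 of 4 in PG were at least 2-fold higher, where the background was 15.3% and 22.6%. In skin, 2 of the 90 cells held 58.6% of the UMIs, and without them the level was 70.0 CPM. The thinned share of cells with a class II core UMI was 11.1% (5.46 to 19.5) in skin, against 2.08% of fibroblasts, and 10.4% (3.47 to 22.7) in PG, against 4.72%. H2-Ab1 gave 12 UMIs in skin against 1 in PG, and it was the 1 of 2 members tested that was past 2-fold lower in PG, where 14.2% of all genes were. Ctss was not detected in either, which allows up to 16.9 CPM in skin and 38.6 CPM in PG, against 395 CPM in the immune cells of skin.

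Other genes of the class II pathway changed unevenly between PG and skin immune cells. Of the 18 with at least 10 UMIs, 5 were at least 2-fold higher in PG and 2 at least 2-fold lower, where 10.2% and 23.6% of all genes were. Within macrophages, 3 of 15 were higher and 3 lower, where the shares of all genes were 13.0% and 21.9%. The single genes named next were read over all immune cells, not over macrophages alone. Ifi30, the lysosomal thiol reductase GILT, had a log2 ratio of 1.96 (1.70 to 2.23) and the protease legumain (Lgmn) 1.04 (0.75 to 1.33). H2-Oa, a chain of the H2-O inhibitor of H2-DM, had 30 UMIs in PG and 2 in skin, and its partner H2-Ob 19 and 6. The ubiquitin ligase March1, which removes class II from the surface, had 7 UMIs in PG and 39 in skin, a log2 ratio of −2.0 (−3.40 to −0.82). Of 13 class I pathway genes 1, B2m, was past 2-fold in immune cells, at a log2 ratio of 1.14 (1.0 to 1.27), and Psmb8 was at −0.86 (−1.16 to −0.57). Within macrophages 0 of 12 were past 2-fold, and the median log2 ratio of the list was −0.19, beside 0.26 in immune cells. Of 15 interferon-γ pathway genes, 2 were past 2-fold higher and 2 lower in immune cells, and 1 of 13 higher and 1 lower in macrophages. Over all immune cells, Cxcl10 had a log2 ratio of 3.21 (2.70 to 3.77) and Cxcl9 −1.24 (−2.43 to −0.19). Ifng itself had 4 UMIs in PG immune cells and 16 in those of skin.

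In epithelial cells the interferon-γ list was mostly lower in PG. Of 13 genes with enough UMIs, 7 were at least 2-fold lower, where 22.4% of all genes were, and 1, Socs1, at least 2-fold higher, where 16.8% were. Cxcl10 was at 25.9 CPM in skin and 1.96 CPM in PG epithelium, a log2 ratio of −3.73 (−4.45 to −3.09), and Irf1, a factor induced by interferon-γ, at 15.7 and 6.16 CPM, a log2 ratio of −1.35 (−1.76 to −0.95). Of the 13 class I presentation genes, 3 were at least 2-fold lower in PG epithelium and 0 higher, where 22.4% and 16.8% of all genes were. The median log2 ratio of that list was −0.11. From it, the immunoproteasome subunit Psmb8 was at 189 CPM in skin and 54.2 CPM in PG, a log2 ratio of −1.80 (−1.93 to −1.67). Within PG, 4 of 13 other class II pathway genes were at least 2-fold higher in the upper follicle gate than in the basal gate, where 8.40% of all genes were, and 0 were lower. The median log2 ratio of these 13 genes was 0.05. The 4 higher genes, all cathepsins, were named after their values were seen. Ctsb was at 498 against 211 CPM and Ctsd at 1099 against 355 CPM. Ctsh was at 108 against 24.5 CPM and Ctsl at 381 against 84.9 CPM. Ctss lay the other way, at 0.69 against 2.32 CPM from 2 and 16 UMIs. Of 10 interferon-γ pathway genes with enough UMIs in these gates, 0 were at least 2-fold higher and 2 at least 2-fold lower, where 18.4% of all genes were.

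Across 26 class profiles of the 2 libraries, the genes whose level followed the class II core most closely were Slamf7, Plek, Spi1, Cd86, Scimp, Tnf, Nckap1l, H2-DMb2, Ms4a6c and Cd84. Their Pearson r ran from 0.952 to 0.966 on log2(CPM + 1), among 8130 genes ranked, with the gating markers and the 8 members themselves left out. Some of the profiles nest in each other and share libraries, so these values are a description.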

How the data were processed

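The paper names the Chromium Next GEM Single Cell 3′ v3.1 kit for its libraries, made from pooled cells of 3 mice per tissue. The authors deposited raw UMI counts, made with Cell Ranger 4, for every gene in every barcode, without normalization or a filter on cells; the submitters' processing notes name mm10, and the annotation release is not given in the sources used here. The barcode lists held 6794880 entries for skin and 737280 for PG, and 0 kept cells shared a barcode. The lists differed in length though 1 kit was named for both tissues, and the reason is not given. If the chemistry of the libraries differed, its part in the ratios between the tissues cannot be told apart from that of tissue. The libraries held 37675226 and 26288071 UMIs. A barcode was kept as a cell if it had 500 genes or more and 1000 UMIs or more, of which no more than 10% came from mitochondrial genes. A cell passed a lineage gate with at least 3 distinct markers of the list and more marker UMIs than a cell made up to 20% of free RNA would give (Poisson tail probability 0.01). Immune and epithelial cells were assigned to the subclass with most markers, if at least 2 and untied. No doublet caller was run for the main values; mixed barcodes were left out. UMIs were summed per class and given as CPM with exact Poisson intervals, ratios with exact conditional binomial intervals and shares of cells with exact Clopper-Pearson intervals, after each cell was thinned to 1000 UMIs. All intervals are at 95%. A class without UMIs was given the limit of 3 counts. The background share was taken over all genes with at least 10 UMIs in the pair of classes, and members under that were left out of counts. Classes under 20 cells were not compared. Every member was named in each comparison of immune and epithelial cells, and of each other list the 6 genes with at least 20 UMIs and the largest ratio in immune cells; genes of other lists named for epithelial cells and the marker splits were chosen after their values were seen. On simulated Poisson sums for 7526 genes at the depth of the immune classes, 97.1% of the intervals held the true ratio. No single cells were simulated, so the spread between cells was not part of that check. The members, markers and lists were chosen with earlier results of these data known. Python 3.11.15, numpy 2.4.6, scipy 1.17.1, pandas 2.3.3, scanpy 1.11.5 and matplotlib 3.10.9 were used. Gene positions came from GENCODE for GRCm38 and promoters from RefSeq.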

Additional observations from a re-analysis of the deposited data

Results flagged for a closer look

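Barcodes above the mitochondrial limit, which no comparison used, also held class II message. In PG, the 662 such barcodes had a class II core of 1452 CPM (1395 to 1510), from 2497 UMIs, and 24 of them had 20 or more class II core UMIs. In skin, the 232 such barcodes had 63.0 CPM (40.0 to 94.6), from 23 UMIs. They are listed because they lie outside the comparisons and pass the limit that a count of 0 allows, 1.74 CPM in PG and 8.22 CPM in skin, a low bar for so many barcodes. The PG level was above the 1031 CPM of the free RNA of that library, and the skin level was below the 439 CPM of its own.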

How the results depend on the processing

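The intervals cover counting error in 1 library per tissue, and the spread between mice was not measured. No paired analysis was possible because each group has 1 sample. Of the 9 alternatives tried for the class II core ratios, 0 turned the direction of a ratio whose interval excludes 0. For PG over skin in immune cells the log2 ratio left its interval at 1.5 with a free RNA allowance of 50% in the gate, 1.59 with 1000 genes and 2000 UMIs, 1.5 without the highest Scrublet scores and 1.39 as the mean of the 4 log2 ratios. In epithelial cells it was 1.05 with the allowance of 50% and 0.90 as the mean of the 4 ratios. In sebocytes it was −1.86 with the allowance of 50%, which left 121 and 253 cells. In endothelial cells it was −2.74 with 1000 genes and 2000 UMIs, which left 29 and 10 cells. Epithelial over immune cells in skin moved to −9.11 with the allowance of 50%, −9.62 with 1000 genes and 2000 UMIs and −11.0 with free RNA subtracted. In PG it moved to −9.77 with 2 distinct markers, −9.97 with 1000 genes and 2000 UMIs, −11.4 with free RNA subtracted and −9.82 as the mean of the 4 ratios. Subtracting free RNA left no class II core in PG sebocytes, and the mean of 4 ratios could not be formed in endothelial cells, where H2-Aa had no UMI in PG. Unthinned, the share of cells with a class II core UMI was 5.99% in skin epithelial cells, 14.0% in PG epithelial cells, 10.4% in skin sebocytes and 5.29% in PG sebocytes. Counting genes with at least 1 UMI moved the background of genes lower in PG endothelial cells to 7.48%. Single genes left their interval in 5 of 188 ratios and reversed in 0. With free RNA subtracted, the epithelial log2 ratio of Cd74 fell to 0.10 and that of H2-Ab1 was 3.81. The share subtracted, 5%, was a setting and exceeded what H2-Eb1, Ctss and H2-Aa held in PG epithelium. The ratio of H2-Ab1 to H2-Aa UMIs in PG epithelium ran from 3.68 to 4.42 over the gates and filters tried. The cause of these shifts was not tested.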

Other observations

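In the other lists, the distance between immune and epithelial cells was smaller than for the class II members. Of the interferon-γ pathway genes with at least 10 UMIs, 12 of 15 in skin and 12 of 13 in PG were at least 2-fold higher in immune cells, with median log2 ratios of 1.75 and 3.28. Of all genes tested, 18.5% in skin and 16.0% in PG were. Class I presentation genes, which most nucleated cells express, were at least 2-fold higher in immune cells for 3 of 13 in skin and 7 of 13 in PG, with median log2 ratios of 0.73 and 1.02. The medians of the 8 class II members were 9.05 and 9.27.

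Immune cells assigned to no subclass also held class II message. The 35 such cells of skin took a median of 3.16% of their UMIs from the class II core and the 15 of PG a median of 5.87%.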
